A study of Mus musculus with 12 samples.

Results

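Granulocyte and macrophage precursors that carry the leukaemia fusion MLL-ENL (MLL-ENL preGM, 3 libraries) were compared with wild-type haematopoietic stem cells (WT HSC, 3 libraries), to ask how close the fusion-carrying precursors came to normal stem cells and what stayed different. These 6 libraries were chosen by their sample titles, out of 12 RNA sequencing libraries in 4 groups of 3, and the 3 wild-type precursor libraries (WT preGM) served as the second point of comparison. The remaining 3 libraries, stem cells of the fusion strain (MLL-ENL HSC), entered the fit to share its estimate of spread. MLL-ENL preGM came from mice of the strain labelled Col1a1-MLL/ENL, and WT preGM and WT HSC from the strain labelled C57bl/6 WT. The sort for both precursor groups took Kit-positive cells that lacked lineage markers and were without Sca1, CD150, CD105, CD41 or CD16/32 on their surface, and the sort for stem cells took lineage-negative, Sca1-positive, Kit-positive, CD48-negative and CD150-positive cells. Every group, WT included, was cultured after sorting for 48 h before RNA was taken. The medium was OptiMEM with 10% serum and held the cytokines SCF (10 to 50 ng/ml), IL3 and G-CSF (each 5 ng/ml) and doxycycline (1 µg/ml). All values are therefore those of cultured cells. Cell type and strain differ together between MLL-ENL preGM and WT HSC and cannot be told apart in that comparison, and MLL-ENL cells without doxycycline were not analysed here.

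Haematopoietic stem cells renew themselves and give rise to every blood lineage, while preGM cells are committed to granulocytes and macrophages and have lost self-renewal. MLL (the product of Kmt2a) is a histone methyltransferase that maintains HOX gene expression, and ENL (the product of Mllt1) is a reader of acetylated histones that works with the transcription elongation machinery. Fusion of these proteins keeps the posterior HOXA genes and MEIS1 transcribed in leukaemia, whereas they are switched off in normal myeloid maturation. Neutrophil maturation itself proceeds in steps: enzymes of the primary granules such as elastase and myeloperoxidase are made first, and proteins of the secondary and tertiary granules later.

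Gene counts per library were 50.3, 38.5 and 43.1 megacounts in MLL-ENL preGM, 44.5, 34.7 and 44.4 in WT preGM, and 15.2, 18.2 and 14.5 in WT HSC, so the stem cell libraries were the shallowest. Mitochondrial genes took 1.83% to 3.12% of the counts in MLL-ENL preGM, 2.71% to 4.09% in WT preGM and 5.40% to 5.92% in WT HSC. Intron reads per 100 gene counts were 3.50, 1.73 and 1.49 in MLL-ENL preGM replicates 1, 2 and 3, against 3.72 to 4.10 in WT HSC. MLL-ENL preGM replicate 1 therefore stood apart from the other 2 in its share of intron reads, and WT preGM replicate 2 stood apart in its share of ribosomal RNA-like counts (1.79%, against 0.457% and 0.474% in the others). The part of these differences in the results below was not tested, and values without 1 or both of these libraries are given beside many of the results. Levels are in CPM, the count relative to the TMM-scaled library size. Fold changes are log2 values of the edgeR fit with their standard error (SE), and a gene was called where its adjusted p over all 15711 genes tested was under 0.05. The labels do not say whether the 3 libraries of a group came from separate mice or cultures, and p-values therefore reflect the scatter of these libraries alone, some or all of it possibly technical. In bulk RNA, fewer cells expressing a gene and less RNA of it per cell cannot be told apart.

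Over the whole transcriptome, MLL-ENL preGM lay nearer to WT HSC than WT preGM did, yet still far outside the spread of the stem cell libraries. The distance of a library from WT HSC was taken as the root mean square difference of its log2 CPM from the WT HSC mean over the 15711 genes. It was 1.48, 1.40 and 1.39 in MLL-ENL preGM, 1.66, 1.69 and 1.66 in WT preGM, and 0.875, 0.881 and 0.955 in WT HSC, where each library was set against the mean of the other 2. Every MLL-ENL preGM library was nearer than every WT preGM library, and none reached the WT HSC range. The mean distance was 1.42 ± 0.0533 in MLL-ENL preGM and 1.67 ± 0.0172 in WT preGM (SD, n = 3 each), a difference of -0.251 with an exact two-sided permutation p of 0.1, the smallest that 3 against 3 libraries can give.

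**Figure D1:**
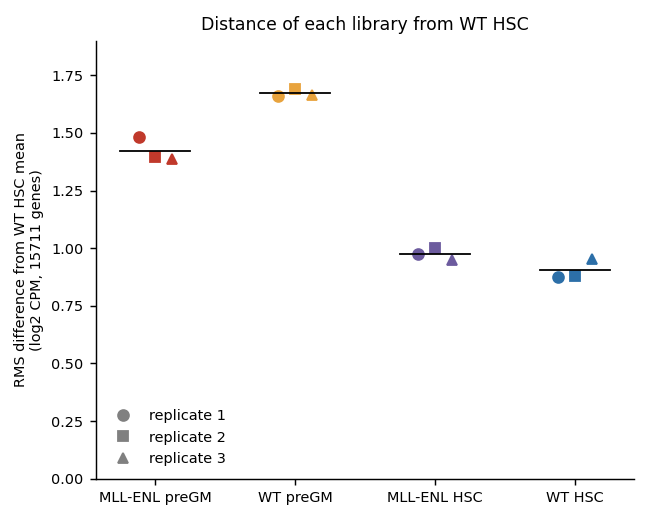
Root mean square log2 CPM difference of each library from WT HSC (y axis, 15711 genes) for the 4 groups of 3 libraries (x axis); symbols mark the replicate and lines the group mean. The MLL-ENL preGM libraries (1.39 to 1.48) lie below the WT preGM libraries (1.66 to 1.69) and above the WT HSC libraries (0.875 to 0.955).

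A large share of genes was called against WT HSC in both precursor groups. Of 15711 genes, 5245 (33.4%) were called in MLL-ENL preGM against WT HSC, 2736 of them higher (17.4% of genes) and 2509 lower (16.0%), and 1809 of the called genes differed by more than 4-fold. In WT preGM against WT HSC, 6044 genes (38.5%) were called, 2888 higher (18.4%) and 3156 lower (20.1%), with 2357 beyond 4-fold. These comparisons share the WT HSC libraries, so their counts are given side by side only. The direct comparison of MLL-ENL preGM with WT preGM, in which the stem cells cancel out, called 1064 genes (6.77%), 582 higher (3.70%) and 482 lower (3.07%). The median log2 fold change over all genes was 0.01 in MLL-ENL preGM against WT HSC, -0.03 in WT preGM against WT HSC and 0.08 in MLL-ENL preGM against WT preGM. Scaling by library size alone moved these medians to -0.36, -0.73 and 0.41, and the share of higher genes among those called to 23.7%, 16.2% and 74.9%, against 52.2%, 47.8% and 54.7% with TMM.

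**Figure D2:**
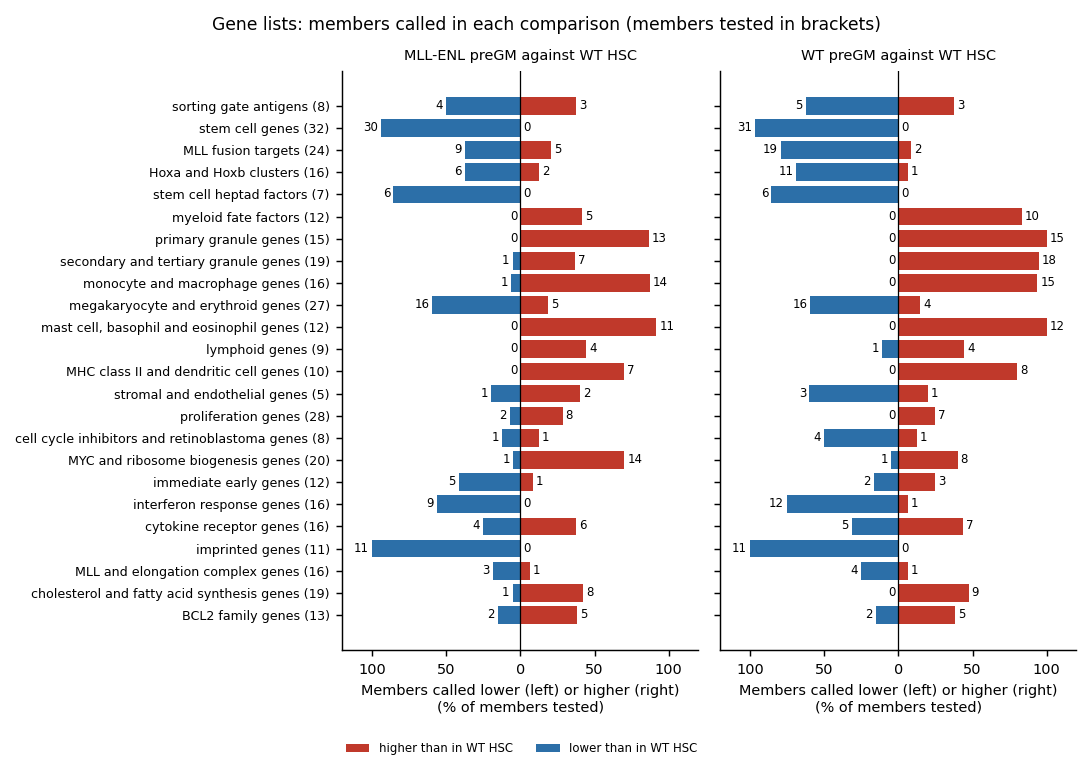
Members of 24 gene lists called lower (blue, left) or higher (red, right) than in WT HSC, as a share of the members tested (x axis, %); the left panel is MLL-ENL preGM and the right panel WT preGM, bars carry the number of genes and brackets the members tested. Stem cell genes are lower in both panels (30 and 31 of 32), while secondary and tertiary granule genes are higher for 7 of 19 members on the left and 18 of 19 on the right; a list of RNA quality genes is left out. Over all genes tested, 16.0% are lower and 17.4% higher on the left, and 20.1% lower and 18.4% higher on the right.

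The transcripts of the surface proteins used for sorting were examined first. The gates were set on these proteins and culture followed, so the values describe the cells and do not test the labels. Of 8 such genes, 3 were higher and 4 lower in MLL-ENL preGM than in WT HSC (over all genes 17.4% and 16.0%). Ly6a, which encodes Sca1, had 5.04, 6.40 and 8.34 CPM in MLL-ENL preGM, 21, 28 and 20.2 CPM in WT preGM and 125, 141 and 150.3 CPM in WT HSC. Its level in MLL-ENL preGM was below both wild-type groups in every library (against WT HSC log2 fold change -4.40 ± 0.27 SE, adjusted p = 4.1e-08; against WT preGM -1.81 ± 0.25, adjusted p = 0.00029). Slamf1, which encodes CD150, had 0.978, 1.01 and 1.82 CPM in MLL-ENL preGM, 0.0896, 0.186 and 0.142 CPM in WT preGM and 10.6, 18.6 and 9.29 CPM in WT HSC, so it lay between the wild-type groups. Eng (CD105) and Itga2b (CD41) were also called lower than in WT HSC, by -2.55 and -1.41, the second by -2.24 without MLL-ENL preGM replicate 1. Kit is the SCF receptor. This gene had 99.4, 29.9 and 29.7 CPM in MLL-ENL preGM, against 113, 86.5 and 85.5 CPM in WT HSC. Its replicate 1 lay inside the WT HSC range and the other 2 below it, and it was not called (log2 fold change -0.84 ± 0.37 SE, adjusted p = 0.095), but without replicate 1 it was called lower (-1.66, adjusted p = 7.9e-05). Some transcripts did not follow the gates after culture. Cd48 was present in stem cells sorted without CD48 (108, 134 and 91.4 CPM), although it was higher in MLL-ENL preGM (366, 676 and 652 CPM). Fcgr3, which encodes CD16, was at 22.8, 42.9 and 42.5 CPM in MLL-ENL preGM and 236, 137 and 250.4 CPM in WT preGM, both sorted without CD16/32, and at 1.23, 0.543 and 1.85 CPM in WT HSC. MLL-ENL preGM lay between the wild-type groups, with a log2 difference from WT preGM of -2.53 ± 0.35, adjusted p = 0.00034.

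Genes that MLL fusions are known to bind included several without a call against WT HSC in MLL-ENL preGM, and most were above WT preGM. Of 24 such genes, 5 were higher and 9 lower in MLL-ENL preGM than in WT HSC (over all genes 17.4% and 16.0%), with a median log2 fold change of -0.52. The number higher was thus near the share over all genes. In WT preGM, 2 were higher and 19 lower than in WT HSC (over all genes 18.4% and 20.1%), with a median of -1.95. Between the precursor groups, 14 were higher and 1 lower in MLL-ENL preGM (over all genes 3.70% and 3.07%), with a median of 1.27. With library size alone the first count became 1 higher and 14 lower, without MLL-ENL preGM replicate 1 it was 3 and 10, and without WT HSC replicate 1 or 3 the number higher was 2.

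Hoxa9 and Hoxa10, the posterior HOX genes that sustain leukaemic self-renewal, were called higher than in WT preGM and were not called against WT HSC. Hoxa9 (chr6:52223100-52231089, minus strand, GRCm38) had 45.3, 36.7 and 36.1 CPM in MLL-ENL preGM, 10.1, 8.75 and 9.14 CPM in WT preGM and 33.5, 26.9 and 22.9 CPM in WT HSC. All 3 MLL-ENL preGM libraries lay above all WT HSC libraries, though the gene was not called (log2 fold change 0.50 ± 0.21 SE, adjusted p = 0.08, 95% interval 0.05 to 0.96), and was called higher with DESeq2 (0.50, adjusted p = 0.036) and without WT preGM replicate 2 (0.51, adjusted p = 0.045). WT preGM lay well below (-1.57 against WT HSC, adjusted p = 4.4e-05). Hoxa10 (chr6:52231197-52240854, minus strand) had 9.56, 9.45 and 6.87 CPM in MLL-ENL preGM, 0.179, 0.559 and 0.370 CPM in WT preGM and 15, 11.2 and 11.4 CPM in WT HSC. Its MLL-ENL preGM libraries were all below the WT HSC range without a call (log2 fold change -0.54 ± 0.28 SE, adjusted p = 0.15), and 4.59 ± 0.35 on the log2 scale above WT preGM (adjusted p = 7.6e-07). Hoxa10 was called lower than in WT HSC with library size alone (-0.91, adjusted p = 0.028), with limma on RPKM (-0.90, adjusted p = 0.018) and without both libraries that stood apart (-0.61, adjusted p = 0.047). Hoxa7 exceeded both wild-type groups, with 52.9, 83.7 and 78.9 CPM in MLL-ENL preGM, 11.7, 10.5 and 11.4 CPM in WT preGM and 33.6, 51.2 and 41.2 CPM in WT HSC (log2 fold change 0.77 ± 0.23 SE, adjusted p = 0.018 against WT HSC), but 20.4% of its exon bases are shared with another gene, whose reads cannot be separated, and the call against WT HSC did not hold without MLL-ENL preGM replicate 2 or 3 or WT HSC replicate 1 or 3 (adjusted p from 0.058 to 0.088). Hoxa5 reached only part of the stem cell level, at 1.54, 3.05 and 3.51 CPM in MLL-ENL preGM, 0.448, 1.02 and 0.655 CPM in WT preGM and 13.4, 11.9 and 16.1 CPM in WT HSC (log2 fold change -2.36 ± 0.34 SE, adjusted p = 0.00011 against WT HSC).

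Over both HOX clusters, 16 genes were tested. In MLL-ENL preGM, 2 were higher (among them Hoxa7) and 6 lower than in WT HSC, against 17.4% and 16.0% of all genes. In WT preGM, 1 was higher and 11 were lower. Hoxb4, long used to expand stem cells, and Hoxb5, a marker of long-term stem cells in mice, remained below WT HSC, with log2 fold changes of -1.98 and -2.90, the second -2.22 without WT HSC replicate 3. Hoxb5 had 0.414, 0.422 and 0.442 CPM in MLL-ENL preGM, 0.0299, 0.0465 and 0.0285 CPM in WT preGM and 1.34, 2.63 and 5.66 CPM in WT HSC. WT preGM lay below the 0.105 CPM that a count of 3 in a library corresponds to there, so the size of its difference from MLL-ENL preGM is uncertain. The call between them (adjusted p = 0.0058) did not hold with thinned counts (2.54, adjusted p = 0.12) or with limma on RPKM (1.11, adjusted p = 0.12). The median log2 fold change over the 16 genes was -2.10 in MLL-ENL preGM and -3.49 in WT preGM against WT HSC (-2.71 in WT preGM with genes absent from a group set to their bound), and 1.78 between the precursor groups. Their summed level was 113 to 138 CPM in MLL-ENL preGM, 24.6 to 26.9 CPM in WT preGM and 109 to 113 CPM in WT HSC. Most of the sum came from Hoxa7 and Hoxa9, which averaged 71.8 and 39.4 CPM in MLL-ENL preGM, 11.2 and 9.33 CPM in WT preGM and 42 and 27.8 CPM in WT HSC.

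Meis1, the cofactor that binds DNA with HOXA9, was far higher in 1 library than in the others. Meis1 (chr11:18879817-19018985, minus strand) had 185, 57.6 and 56.2 CPM in MLL-ENL preGM, 9.05, 8.94 and 10.2 CPM in WT preGM and 136, 139.5 and 134 CPM in WT HSC. Replicate 1 lay above the stem cells and the other 2 below them, with no call (log2 fold change -0.46 ± 0.36 SE, adjusted p = 0.34, 95% interval -1.21 to 0.30). Without replicate 1 it was called lower than in WT HSC, by -1.26 (adjusted p = 0.00013). Every MLL-ENL preGM library exceeded every WT preGM library (3.40 ± 0.39, adjusted p = 6.5e-05, and 2.60 without replicate 1). Eya1 is a transcriptional coactivator and phosphatase. The transcript had 15, 5.46 and 7.09 CPM in MLL-ENL preGM, 0.567, 0.791 and 0.256 CPM in WT preGM and 10.2, 6.48 and 4.74 CPM in WT HSC, and the MLL-ENL preGM and WT HSC ranges overlapped (log2 fold change 0.37 ± 0.40 SE, adjusted p = 0.5). Runx2, a runt factor, Bcl2, a survival protein, and Myb, a progenitor factor, were also without a call against WT HSC. Their log2 fold changes from WT HSC were -0.09, -0.40 and -0.25 in MLL-ENL preGM, none of them called, and -1.28, -1.35 and -0.77 in WT preGM, all called. Bcl2 was called lower in MLL-ENL preGM with library size alone (-0.77, adjusted p = 0.023), with limma on RPKM (-0.78, adjusted p = 0.019) and without both libraries that stood apart (-0.48, adjusted p = 0.017), and Myb with limma on RPKM (-0.64, adjusted p = 0.045). For Myb in WT preGM the call against WT HSC did not hold without WT preGM replicate 1 (-0.68, adjusted p = 0.07).

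Other targets did not share this pattern. Mecom is the stem cell factor EVI1. Its level was 8.79, 5.30 and 6.68 CPM in MLL-ENL preGM, 0.567, 0.652 and 0.398 CPM in WT preGM and 43.1, 42.9 and 34.1 CPM in WT HSC. MLL-ENL preGM lay between the wild-type groups without overlap, -2.53 ± 0.25, adjusted p = 2.4e-06 against WT HSC and 3.70 ± 0.29, adjusted p = 8.4e-07 against WT preGM. Hmga2 is a chromatin protein of fetal stem cells. It was at 1.43, 2.89 and 3.04 CPM in MLL-ENL preGM, 2.57, 4.19 and 2.82 CPM in WT preGM and 43, 36.5 and 37.8 CPM in WT HSC, so both precursor groups were far below (log2 fold change -4.00 ± 0.32 SE, adjusted p = 3.6e-07 against WT HSC). Cdk6, a cell cycle kinase, was above WT HSC at 625, 755 and 590.0 CPM in MLL-ENL preGM, against 289, 304 and 337 CPM in WT HSC (log2 fold change 1.08 ± 0.28 SE, adjusted p = 0.0076). For Cdk6, WT preGM was not called against WT HSC (0.42), and the precursor groups were not called apart (0.66, adjusted p = 0.16). Flt3 is a receptor kinase of multipotent progenitors. This gene had 38.7, 19.7 and 17.4 CPM in MLL-ENL preGM, 9.28, 8.80 and 9.48 CPM in WT preGM and 13, 15.1 and 15.3 CPM in WT HSC, and was called higher than in both (adjusted p = 0.047 against WT HSC and 0.0069 against WT preGM). For Flt3 the call against WT HSC did not hold without MLL-ENL preGM replicate 1, WT preGM replicate 1 or 3, MLL-ENL HSC library 2 or 3 or any WT HSC library (adjusted p from 0.055 to 0.24), and without MLL-ENL preGM replicate 1 the difference from WT HSC was 0.37.

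Kmt2a itself, the wild-type partner of the fusion, was at 39.8, 31.2 and 34.4 CPM in MLL-ENL preGM, against 78.9, 72.5 and 72.7 CPM in WT HSC (log2 fold change -1.09 ± 0.22 SE, adjusted p = 0.0019). Kmt2a was also called lower in WT preGM than in WT HSC (-1.76, adjusted p = 2.2e-05). Between the precursor groups it was not called (0.67, adjusted p = 0.089), although 5 of 21 alternatives called it higher in MLL-ENL preGM. Mllt1 was at 14.7, 16.9 and 17.2 CPM in MLL-ENL preGM, against 22.4, 17.7 and 23.7 CPM in WT HSC, and was not called (-0.39 ± 0.22, adjusted p = 0.19). WT preGM was called lower than WT HSC for Mllt1 (-0.71, adjusted p = 0.018), though not without replicate 1 or 3 of either group. The transgene was not measured apart from these genes, so the files give no direct check of the fusion. Of 16 genes of the MLL and elongation complexes, 1 was higher (Ccnt1) and 3 were lower than in WT HSC (Kmt2a, Psip1 and Mllt3). The shares over all genes were 17.4% higher and 16.0% lower, so these numbers were under or near those of all genes. For Ccnt1, a subunit of the elongation kinase P-TEFb, the call against WT HSC did not hold without MLL-ENL preGM replicate 1 or 3 or WT HSC replicate 2 or 3 (adjusted p from 0.056 to 0.13), and without WT preGM replicate 2 the number lower was 5. With library size alone, none was higher and 8 were lower. Mllt3 (AF9), another fusion partner of MLL that maintains human stem cells in culture, had 8.39, 7.93 and 7.51 CPM in MLL-ENL preGM, 8.36, 13.2 and 10.6 CPM in WT preGM and 69.7, 65.9 and 55.3 CPM in WT HSC. Psip1 and Mllt3 were called lower than in WT HSC in WT preGM too (-1.64 and -2.57).

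**Figure D3:**
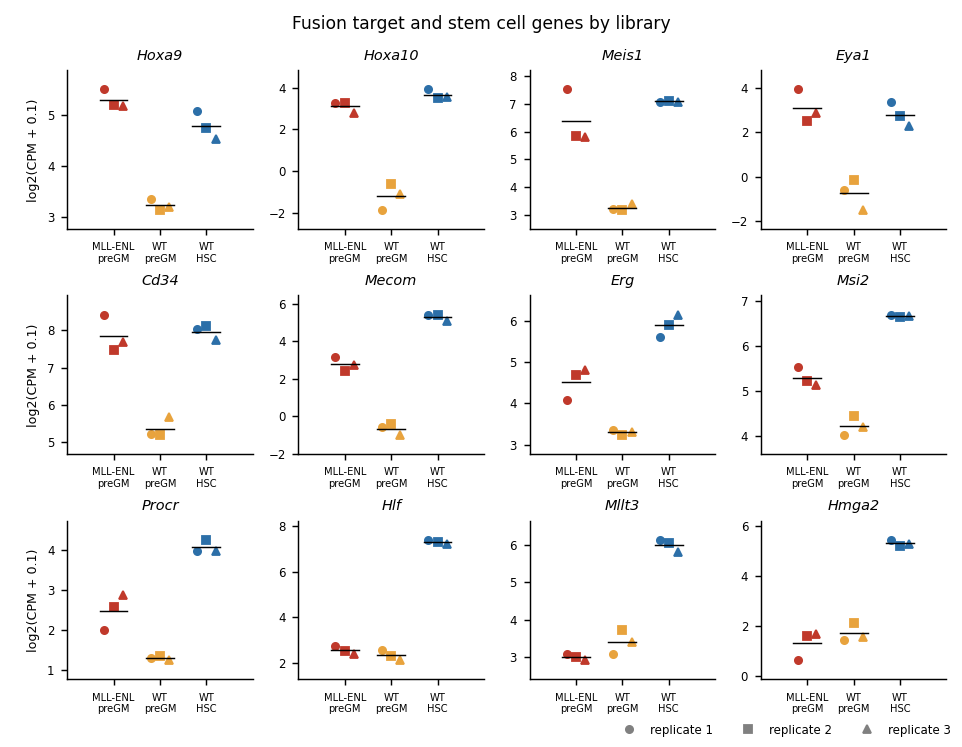
Levels of 12 fusion target and stem cell genes, as log2(CPM + 0.1) on the y axis, in MLL-ENL preGM, WT preGM and WT HSC (x axis); each symbol is 1 library, lines are group means, and the genes were picked with their values known. The MLL-ENL preGM libraries lie above WT HSC for Hoxa9, below it for Hoxa10 and overlap it for Eya1 and Cd34, Meis1 lies above WT HSC in replicate 1 and below it in replicates 2 and 3, Mecom, Erg, Msi2 and Procr lie between the wild-type groups, and Hlf, Mllt3 and Hmga2 lie near WT preGM.

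Stem cell genes as a group remained low. Of 32 tested, none was higher and 30 were lower in MLL-ENL preGM than in WT HSC, with a median log2 fold change of -3.13. In WT preGM, 31 were lower, with a median of -4.87. Against WT preGM, 15 of the 32 were higher in MLL-ENL preGM and none lower, with a median of 0.97. The 15 included Fgd5, a guanine exchange factor that marks mouse stem cells, at 0.282, 0.162 and 0.193 CPM in MLL-ENL preGM, 0.0299, 0.0465 and 0 CPM in WT preGM and 11.6, 19.9 and 15.9 CPM in WT HSC, with WT preGM below the level of 3 counts. It was 3.07 above WT preGM on the log2 scale and still -6.15 from WT HSC, so a call against WT preGM did not mean a level near stem cells. For Fgd5 the call against WT preGM did not hold without MLL-ENL preGM replicate 1 or WT preGM replicate 3 (adjusted p from 0.052 to 0.056), with thinned counts (1.99, adjusted p = 0.28) or with limma on RPKM (0.35, adjusted p = 0.43).

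Cd34, a stem and progenitor sialomucin, was not called against WT HSC. Cd34 (chr1:194938819-194961279, plus strand) had 343, 178 and 206 CPM in MLL-ENL preGM, 37, 36.3 and 51 CPM in WT preGM and 263, 276 and 213 CPM in WT HSC. The MLL-ENL preGM and WT HSC ranges overlapped (log2 fold change -0.05 ± 0.27 SE, adjusted p = 0.91, 95% interval -0.63 to 0.53), and WT preGM lay below both. Without both libraries that stood apart, Cd34 was called lower than in WT HSC (-0.38, adjusted p = 0.049). Ifitm1, an interferon-induced membrane protein, was the other member without a call, and its MLL-ENL preGM and WT HSC ranges overlapped too (-0.32 ± 0.35, adjusted p = 0.5).

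Several regulators reached an intermediate level. Msi2 is an RNA-binding protein of stem cells. It had 45.9, 37.2 and 34.9 CPM in MLL-ENL preGM, 16.2, 21.8 and 18.2 CPM in WT preGM and 104, 99.6 and 102 CPM in WT HSC. The 3 groups did not overlap, with log2 fold changes from WT HSC of -1.37 in MLL-ENL preGM and -2.44 in WT preGM. Procr is the endothelial protein C receptor. This gene had 3.91, 5.85 and 7.23 CPM in MLL-ENL preGM, 2.36, 2.47 and 2.28 CPM in WT preGM and 15.6, 19 and 15.6 CPM in WT HSC (1.26 ± 0.27, adjusted p = 0.0093 against WT preGM). Adgrg1, an adhesion receptor of stem cells also called GPR56, depended on replicate 1, at 316, 81 and 90.9 CPM in MLL-ENL preGM, 25.9, 32.4 and 34.7 CPM in WT preGM and 428, 429.8 and 416 CPM in WT HSC. It was called lower than in WT HSC (-1.39 ± 0.40, adjusted p = 0.015), by -2.30 without replicate 1, and the call did not hold without replicate 2 (adjusted p = 0.058) or replicate 3 (adjusted p = 0.069).

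Other stem cell genes were low in both precursor groups and were not called between them. Hlf is a leucine zipper factor that marks stem cells. The transcript had 6.66, 5.59 and 5.22 CPM in MLL-ENL preGM, 5.79, 4.93 and 4.27 CPM in WT preGM and 167, 158 and 145 CPM in WT HSC. Its difference from WT preGM was 0.22 with a 95% interval of -0.25 to 0.69. Cdkn1c is the cyclin-dependent kinase inhibitor p57. It had 0.452, 0.715 and 0.331 CPM in MLL-ENL preGM, 0.358, 0.791 and 0.285 CPM in WT preGM and 8.83, 8.29 and 13.5 CPM in WT HSC. Its interval against WT preGM was -0.80 to 1.03.

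Of the 7 transcription factors that bind together at stem cell enhancers, 6 were lower in MLL-ENL preGM than in WT HSC (Runx1, Tal1, Lmo2, Erg, Fli1 and Gata2), and the same number was lower in WT preGM. The shares lower over all genes were 16.0% and 20.1%. Erg, an ETS factor, was the only one of the 7 called between the precursor groups, at 16.8, 25.5 and 28 CPM in MLL-ENL preGM, 10.1, 9.31 and 9.82 CPM in WT preGM and 48.6, 60.0 and 71.1 CPM in WT HSC (1.26 ± 0.24, adjusted p = 0.0039 against WT preGM). Without both libraries that stood apart, Lmo2 (0.90, adjusted p = 0.00025) and Tal1 (0.63, adjusted p = 0.048) were also called higher than in WT preGM. Lyl1, a basic helix-loop-helix factor, was not called in either precursor group, but was called lower in MLL-ENL preGM without replicate 1 (-0.91, adjusted p = 0.017) and in WT preGM without both libraries that stood apart (-0.68, adjusted p = 0.0087).

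Among protein-coding genes with a mean of at least 20 CPM in MLL-ENL preGM or WT HSC, 5 met a rule for nearness to WT HSC with all libraries in. The rule asked for a called difference of at least 4-fold between WT preGM and WT HSC. It also asked for a call between MLL-ENL preGM and WT preGM towards the stem cells, and a 95% interval against WT HSC within 2-fold. Besides Cd34, which was called lower without both libraries that stood apart, the genes that met it were Cd27, Smim5, Tmsb4x and Limd2. Cd27 is a TNF receptor family member of early progenitors. This gene had 63.6, 113 and 101 CPM in MLL-ENL preGM, 11.2, 6.70 and 11 CPM in WT preGM and 119, 114 and 109 CPM in WT HSC, with an interval of -0.85 to 0.25 against WT HSC. Smim5, a small membrane protein, was likewise high, at 22.9, 47.3 and 40.5 CPM in MLL-ENL preGM, 11.6, 8.01 and 10.3 CPM in WT preGM and 48.5, 39.2 and 50.8 CPM in WT HSC. The remaining pair was low in MLL-ENL preGM and WT HSC and high in WT preGM. Tmsb4x is the actin-binding thymosin beta 4. The transcript had 739.8, 2044 and 1817 CPM in MLL-ENL preGM, 5866, 11240.1 and 5478 CPM in WT preGM and 1691, 1414 and 1923 CPM in WT HSC, and Limd2, a LIM domain protein, had 37.2, 50.9 and 50.4 CPM in MLL-ENL preGM, 133, 163 and 114 CPM in WT preGM and 26, 36.4 and 36.8 CPM in WT HSC. Limd2 was called higher than in WT HSC without MLL-ENL preGM replicate 1 (0.62, adjusted p = 0.032). Dntt, the terminal transferase of early lymphoid progenitors, showed a similar order at a lower level, with 2.05, 5.04 and 4.44 CPM in MLL-ENL preGM, 0.0597, 0.233 and 0.142 CPM in WT preGM and 4.08, 2.31 and 3.75 CPM in WT HSC (0.18 ± 0.49, adjusted p = 0.8 against WT HSC).

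In MLL-ENL preGM, 13 of 15 primary granule genes were called higher than in WT HSC, against 7 of 19 secondary and tertiary granule genes, of which 11 were not called. Over all genes, 17.4% were called higher. Of 12 myeloid fate factors, 5 were higher and none lower in MLL-ENL preGM than in WT HSC, with a median log2 fold change of 0.95. In WT preGM, 10 were higher, with a median of 3.82 (3.14 with Egr2, which had no counts in WT HSC, set to its lower bound), and 6 were lower in MLL-ENL preGM than in WT preGM.

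Cebpa, the factor that starts granulocyte commitment, had 22, 38.9 and 39.3 CPM in MLL-ENL preGM, 48.4, 74.7 and 47.9 CPM in WT preGM and 2.01, 2.81 and 4.98 CPM in WT HSC. Every precursor library was far above every stem cell library (log2 fold change 3.36 ± 0.39 SE, adjusted p = 1.2e-05 in MLL-ENL preGM against WT HSC). Gfi1, a repressor needed for neutrophil formation, and Irf8, a factor of monocyte and dendritic cell fate, were likewise called higher than in WT HSC, by 4.65 and 3.09, or 5.65 without WT HSC replicate 2 and 3.83 without WT HSC replicate 1, and neither was called between the precursor groups. Cebpe is the factor that turns on the later granule genes. Its level was 5.87, 8.19 and 8.12 CPM in MLL-ENL preGM, 36.7, 32.5 and 28.9 CPM in WT preGM and 0, 0.136 and 0.123 CPM in WT HSC. It lay between the wild-type groups, 6.31 ± 0.84, adjusted p = 4.7e-05 against WT HSC and -2.15 ± 0.53, adjusted p = 0.023 against WT preGM. For Cebpe the call against WT preGM did not hold without MLL-ENL preGM replicate 1 or 3 or WT preGM replicate 1 or 2 (adjusted p from 0.055 to 0.096).

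Spi1, which encodes PU.1, had 7.02, 14 and 13 CPM in MLL-ENL preGM, 27.6, 48.3 and 22.2 CPM in WT preGM and 8.21, 7.43 and 10.3 CPM in WT HSC. The MLL-ENL preGM range enclosed that of WT HSC (0.39 ± 0.32, adjusted p = 0.36; called higher without both libraries that stood apart, 0.65, adjusted p = 0.016) and stayed below WT preGM (-1.53 ± 0.32, adjusted p = 0.0069). Klf4 is a monocyte factor. It was at 0.245, 0.487 and 0.552 CPM in MLL-ENL preGM and 16.3, 25.6 and 13.5 CPM in WT preGM, a log2 difference of -5.45 ± 0.75, adjusted p = 0.00029. In WT HSC it was at 3.02, 0.272 and 0.308 CPM, where replicate 1 stood above the other 2, and it was called lower than in WT HSC without WT HSC replicate 2 (-1.99, adjusted p = 0.043). Cebpb and Cebpd, which act in later or emergency granulopoiesis, were not called against WT HSC (0.09 and 1.18) and were called lower than in WT preGM (-2.47 and -2.54), although 20.7% of the exon bases of Cebpb are shared with another gene. Cebpd was called higher than in WT HSC without MLL-ENL preGM replicate 1 (1.51, adjusted p = 0.027).

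Primary granule genes were high in MLL-ENL preGM. Of 15, 13 were higher and none lower in MLL-ENL preGM than in WT HSC, with a median of 4.29. In WT preGM all 15 were higher, with a median of 6.14, and 10 were lower in MLL-ENL preGM than in WT preGM, while 6 were called lower without WT preGM replicate 1. Elane (neutrophil elastase) had 1681, 2630.0 and 2510.3 CPM in MLL-ENL preGM, 12713, 13246 and 9808 CPM in WT preGM and 17.6, 28.4 and 38.1 CPM in WT HSC. The 3 groups did not overlap (log2 fold change 6.34 ± 0.42 SE, adjusted p = 5.9e-08 against WT HSC; -2.39 ± 0.35, adjusted p = 0.00045 against WT preGM). Mpo (myeloperoxidase, 16% of exon bases shared) differed, with 12104, 5350.3 and 6411 CPM in MLL-ENL preGM, 5736, 2432 and 7586 CPM in WT preGM and 24.7, 52.3 and 54.6 CPM in WT HSC, so the precursor ranges overlapped. Ctsg (cathepsin G), Ms4a3, a membrane protein of granulocyte and monocyte precursors, and Hp (haptoglobin) were called higher than in WT HSC by 7.07, 6.38 and 6.65, and lower than in WT preGM by -1.25, -1.70 and -1.76. For Ctsg the call against WT preGM did not hold without MLL-ENL preGM replicate 1 or 3, WT preGM replicate 1 or 2, any MLL-ENL HSC library or WT HSC replicate 2 (adjusted p from 0.052 to 0.087), and for Hp the call against WT preGM did not hold without MLL-ENL preGM replicate 1 or 3 or WT preGM replicate 1 or 3 (adjusted p from 0.061 to 0.12). Serpinb1a, an inhibitor of the granule proteases, and Srgn, the proteoglycan that packs them, were not called against WT HSC (adjusted p = 0.055 and 0.33). Serpinb1a was called higher without MLL-ENL preGM replicate 1 or WT preGM replicate 2 (adjusted p from 0.0025 to 0.029), and Srgn without MLL-ENL preGM replicate 1 (0.72, adjusted p = 0.02).

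Secondary and tertiary granule genes had the largest median difference between the precursor groups of the 25 lists examined. Of 19 tested, 7 were higher and 1 lower in MLL-ENL preGM than in WT HSC, with a median of 0.75. In WT preGM, 18 were higher, with a median of 8.28, and 16 were lower in MLL-ENL preGM than in WT preGM, with a median of -3.87. The summed level of the list was 299.5 to 516 CPM in MLL-ENL preGM, 6629 to 7842 CPM in WT preGM and 398 to 415 CPM in WT HSC. In MLL-ENL preGM and WT HSC, the members given with their levels below made up only a small part of the sum. Similar sums therefore do not mean similar levels of each gene. In WT preGM, S100a8 and S100a9 made up a large part of it.

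S100a8 and S100a9, the subunits of calprotectin, and Ngp and Camp, cationic proteins of the secondary granules, were low in MLL-ENL preGM. S100a8 had 4.14, 10.6 and 11.4 CPM in MLL-ENL preGM, 2422, 3619 and 1946 CPM in WT preGM and 3.86, 4.12 and 7.57 CPM in WT HSC. S100a9 had 1.07, 2.21 and 2.95 CPM in MLL-ENL preGM, 806, 1142 and 665 CPM in WT preGM and 1.34, 1.77 and 2.21 CPM in WT HSC. Both genes overlapped between MLL-ENL preGM and WT HSC and were apart from WT preGM by -8.26 ± 0.51 and -8.72 ± 0.46 on the log2 scale. Ngp had 0.922, 1.85 and 2.37 CPM in MLL-ENL preGM, 640.1, 375 and 637 CPM in WT preGM and 1.34, 0.996 and 1.54 CPM in WT HSC. Camp had 0.226, 0.130 and 0.166 CPM in MLL-ENL preGM, 54.2, 106 and 55.9 CPM in WT preGM and 0.168, 0.317 and 0.123 CPM in WT HSC, which is at the limit of detection in MLL-ENL preGM and WT HSC, where a count of 3 in a library corresponds on average to 0.0789 and 0.163 CPM. Their differences from WT HSC were not called (0.75 ± 0.39, adjusted p = 0.15 for S100a8; 0.22 ± 0.37, adjusted p = 0.68 for S100a9; 0.40 ± 0.38, adjusted p = 0.43 for Ngp; -0.23 ± 0.59, adjusted p = 0.8 for Camp). S100a8 was called higher without MLL-ENL preGM replicate 1 (1.10, adjusted p = 0.017), and Ngp without both libraries that stood apart (0.75, adjusted p = 0.016).

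The promoters of these 4 genes are shown because their transcripts were low together in MLL-ENL preGM and high together in WT preGM. The windows are chr3:90695672-90695971 (minus strand) for S100a9, chr3:90668821-90669120 (plus strand) for S100a8, chr9:110419558-110419857 (plus strand) for Ngp and chr9:109849407-109849706 (minus strand) for Camp. Each sequence runs from 250 bases before to 50 bases after the annotated start (RefSeq, GRCm38.p6, on the gene's strand), and capitals mark matches of TTGCNNAA, a form of the site that C/EBP factors bind.
S100a9: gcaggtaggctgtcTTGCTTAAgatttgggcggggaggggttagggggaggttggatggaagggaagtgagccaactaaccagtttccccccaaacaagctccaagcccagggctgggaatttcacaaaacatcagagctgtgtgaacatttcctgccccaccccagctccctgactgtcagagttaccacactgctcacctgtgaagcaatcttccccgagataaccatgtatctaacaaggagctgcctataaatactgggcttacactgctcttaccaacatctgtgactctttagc
S100a8: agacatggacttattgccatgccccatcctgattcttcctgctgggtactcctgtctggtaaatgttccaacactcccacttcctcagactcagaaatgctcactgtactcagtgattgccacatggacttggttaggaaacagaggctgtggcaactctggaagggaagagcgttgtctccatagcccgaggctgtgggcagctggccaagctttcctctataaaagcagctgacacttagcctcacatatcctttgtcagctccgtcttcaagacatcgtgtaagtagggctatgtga
Ngp: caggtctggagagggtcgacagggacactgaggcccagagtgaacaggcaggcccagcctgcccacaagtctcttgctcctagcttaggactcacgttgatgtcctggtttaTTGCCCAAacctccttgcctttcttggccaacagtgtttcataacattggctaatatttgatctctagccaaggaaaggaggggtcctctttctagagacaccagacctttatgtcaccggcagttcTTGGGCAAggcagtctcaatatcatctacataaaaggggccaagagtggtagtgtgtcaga
Camp: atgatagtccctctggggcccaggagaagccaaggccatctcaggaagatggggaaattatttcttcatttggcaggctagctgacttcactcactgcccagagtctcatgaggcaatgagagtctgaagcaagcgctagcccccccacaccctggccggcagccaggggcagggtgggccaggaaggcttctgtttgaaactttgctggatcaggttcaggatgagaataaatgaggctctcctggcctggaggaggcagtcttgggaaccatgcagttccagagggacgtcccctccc
In all, 6 motifs were searched on both strands of the 32851 promoters in that table, and the one in capitals was picked after the matches were seen. TTGCNNAA was found in 10.8% of all promoters, in 9 of the 19 secondary and tertiary granule genes with a promoter given (21 listed), and in 4 of the 12 such primary granule genes (15 listed). Its looser forms TTNCNNAA and TTGCNNNA, which every match of it also matches, were found in 40.7% and 33.4% of all promoters, in 14 and 13 of the secondary and tertiary and in 6 and 9 of the primary granule genes. A listed gene counted where any of its promoters matched, while the share over all is per promoter, so the 2 are unlike measures. GGAAGTG, a form of the PU.1 site, was found in 11.0% of all promoters and in 5 and 3 of those lists. TGACAG, a form of the MEIS site, was found in 19.2% of all promoters and in 2 of each list, and TGATNNAT, a form of a composite HOX site, in 8.85% of all promoters and in 1 and 0 of those lists. The S100a9 window holds 1 match of TTGCNNAA, the Ngp window 2, and the S100a8 and Camp windows none. A match describes letters and no match says only that these letters are not in the window.

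The 7 late granule genes called higher than in WT HSC included Lcn2 and Mmp8. Lcn2 (lipocalin 2), which binds bacterial siderophores, had 11, 19.6 and 27.8 CPM in MLL-ENL preGM, 258, 383 and 215 CPM in WT preGM and 0.224, 0.408 and 0.492 CPM in WT HSC, so it lay between the wild-type groups (5.69 ± 0.50, adjusted p = 9.5e-07 against WT HSC; -3.87 ± 0.41, adjusted p = 2.3e-05 against WT preGM). Mmp8 is the neutrophil collagenase. This gene was at 13.7, 7.38 and 8.50 CPM in MLL-ENL preGM, 25.8, 16.9 and 41.5 CPM in WT preGM and 0, 0.0453 and 0.123 CPM in WT HSC, called higher than in WT HSC by 7.42, or 8.41 without WT HSC replicate 3. Ltf (lactoferrin), a secondary granule protein that binds iron, was the 1 member called lower than in WT HSC, at 0.169, 0.162 and 0.110 CPM in MLL-ENL preGM, 30.6, 16.7 and 57.5 CPM in WT preGM and 0.559, 1.09 and 0.246 CPM in WT HSC. The call rests on low counts (log2 fold change -2.10 ± 0.61 SE, adjusted p = 0.015), while the difference from WT preGM was -7.83 ± 0.58, adjusted p = 5.6e-07. For Ltf the call against WT HSC did not hold without WT HSC replicate 2 (-1.42, adjusted p = 0.14). Cxcr2, the chemokine receptor that releases neutrophils from marrow, was called higher than in WT HSC in both precursor groups (2.14 and 2.11).

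**Figure D4:**
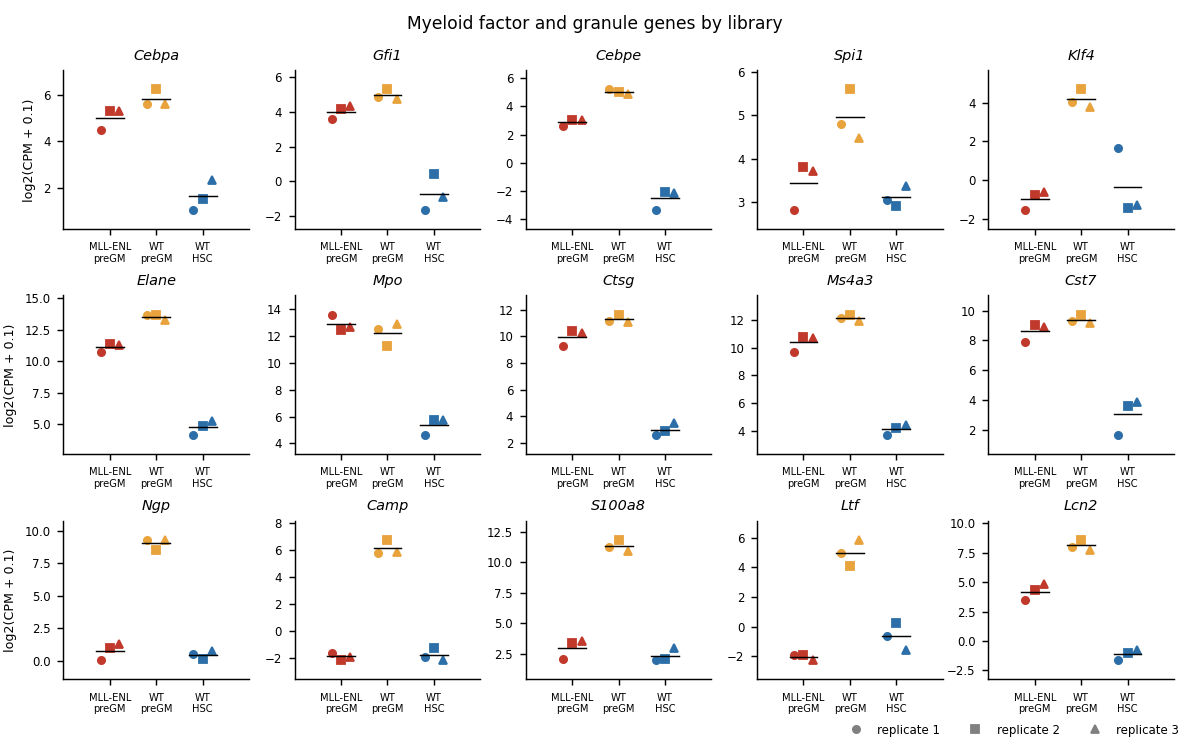
Levels of 15 myeloid factor and granule genes, as log2(CPM + 0.1) on the y axis, in MLL-ENL preGM, WT preGM and WT HSC (x axis); each symbol is 1 library, lines are group means, and the genes were picked with their values known. Elane, Mpo, Ctsg, Ms4a3 and Cst7 are far above WT HSC in both precursor groups, while Ngp, Camp and S100a8 are within 0.75 of WT HSC on the log2 scale in MLL-ENL preGM and high in WT preGM; Cebpe and Lcn2 lie between.

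Markers of other mature cells were also above stem cells. Of 16 monocyte and macrophage genes, 14 were higher and 1 lower in MLL-ENL preGM than in WT HSC, with a median of 4.63 (4.24 with genes absent from WT HSC set to their lower bound), and 10 were lower and 1 higher than in WT preGM. The summed level of the list was 648 to 682 CPM in MLL-ENL preGM, 1935 to 2558 CPM in WT preGM and 62 to 90.0 CPM in WT HSC. Mpeg1 and Adgre1 (F4/80), both macrophage genes, had no counts in WT HSC and were at least 18.5-fold and 33.8-fold higher in MLL-ENL preGM, relative to a floor of 3 counts per library. Ccr2 is the chemokine receptor of inflammatory monocytes. The transcript was at 292, 143 and 137 CPM in MLL-ENL preGM, 82.7, 105 and 87.4 CPM in WT preGM and 1.06, 2.26 and 1.05 CPM in WT HSC. Ly6c2 is a surface protein of monocytes. Its level was 40.7, 95.6 and 90.1 CPM in MLL-ENL preGM, 832, 1176 and 748 CPM in WT preGM and 1.68, 2.54 and 2.89 CPM in WT HSC. Ccr2 was not called between the precursor groups (1.06 ± 0.36, adjusted p = 0.09), and Ly6c2 was (-3.61 ± 0.36, adjusted p = 1.3e-05). Fn1 (fibronectin) was the member called lower, at 0.188, 0.0650 and 0.276 CPM in MLL-ENL preGM, 5.88, 8.94 and 6.46 CPM in WT preGM and 2.85, 3.31 and 4.25 CPM in WT HSC.

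Of 12 mast cell, basophil and eosinophil genes, 11 were higher in MLL-ENL preGM than in WT HSC, with a median of 4.76 (4.52 with lower bounds), and 6 were lower than in WT preGM. Hdc, which makes histamine, had the largest log2 fold change against WT HSC among the protein-coding genes with at least 20 CPM in 1 of the groups, at 107, 43.2 and 54.3 CPM in MLL-ENL preGM, 23.9, 20.9 and 45 CPM in WT preGM and 0.0559, 0.453 and 0.246 CPM in WT HSC (log2 fold change 7.99 ± 0.56 SE, adjusted p = 1e-07, and 8.82 without WT HSC replicate 2). Mcpt8 is a basophil protease. It was at 32.7, 88.7 and 85.1 CPM in MLL-ENL preGM, 774, 1619 and 1244 CPM in WT preGM and 1.68, 2.31 and 4.49 CPM in WT HSC. Of 10 MHC class II and dendritic cell genes, 7 were higher than in WT HSC, with a median of 2.33 (1.67 with lower bounds), but only 4 without MLL-ENL preGM replicate 1, without WT HSC replicate 1 or without WT HSC replicate 3. Cd74 is the invariant chain of class II molecules. This gene was at 29.3, 39 and 59.4 CPM in MLL-ENL preGM, 279, 99.6 and 402 CPM in WT preGM and 4.64, 5.66 and 6.77 CPM in WT HSC. Of 9 lymphoid genes tested, 4 were higher than in WT HSC (over all genes 17.4%), among them Ighm, Satb1 and Igll1. Rag1, Cd79a, Pax5, Ebf1 and Cd3e had at most 11 counts over the 3 MLL-ENL preGM libraries and were not tested.

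The largest differences from stem cells, among protein-coding genes with at least 20 CPM in 1 group and separate libraries and under 10% of exon bases shared, were in genes of mixed lineages. The 12 highest in MLL-ENL preGM included Hdc, Ms4a2, Atp8b4, Ccr1, Ctsg, Ccr2, Car1, Anxa3, Igsf6, Trem3 and Hp, with log2 fold changes of 6.65 to 7.99. Atp8b4 is a phospholipid flippase, and Anxa3 is an annexin of neutrophils. The others named include a chain of the IgE receptor of mast cells (Ms4a2), a pair of chemokine receptors (Ccr1 and Ccr2) and an erythroid carbonic anhydrase (Car1). Of these 12, 4 were called lower than in WT preGM (Ctsg, Igsf6, Trem3 and Hp), 1 was called higher (Ccr1), and the other 7 were not called between the precursor groups, although Anxa3 (-0.80, adjusted p = 0.042) and Atp8b4 (-0.98, adjusted p = 0.0043) were called lower without both libraries that stood apart. The 5 calls made with all libraries were close to the threshold: for Igsf6 the call against WT preGM did not hold without MLL-ENL preGM replicate 2 or 3, WT preGM replicate 1 or 3 or MLL-ENL HSC library 3 (adjusted p from 0.053 to 0.1), for Trem3 the call against WT preGM did not hold without MLL-ENL preGM replicate 1 or 3, WT preGM replicate 1 or 2, any MLL-ENL HSC library or WT HSC replicate 2 (adjusted p from 0.056 to 0.1), and for Ccr1 the call against WT preGM did not hold without MLL-ENL preGM replicate 1 or 3 or WT preGM replicate 1 or 2 (adjusted p from 0.063 to 0.14), with Ctsg and Hp as given above. Hdc was called higher than in WT preGM without MLL-ENL preGM replicate 2 or WT preGM replicate 3 (adjusted p from 0.033 to 0.035). Ccr1 was at 39, 28.8 and 33.1 CPM in MLL-ENL preGM, 10.7, 6.75 and 18.8 CPM in WT preGM and 0.224, 0.362 and 0.123 CPM in WT HSC (1.48 ± 0.39, adjusted p = 0.032 against WT preGM). The 12 lowest included Mmrn1, Col4a1, Chad, Esam, Pf4, Gucy1a1, Hlf, Mycn, Ly6a and Vldlr, with log2 fold changes of -6.40 to -4.22. Mycn is the MYC family member of stem cells. Its level was 2.56, 2.79 and 2.40 CPM in MLL-ENL preGM, 0.448, 1.49 and 1.45 CPM in WT preGM and 64.5, 68.8 and 70.9 CPM in WT HSC. Gucy1a1 is a subunit of the nitric oxide receptor and Vldlr a lipoprotein receptor. Mmrn1, Pf4 and the collagen chain Col4a1 are products of platelets, their precursors or vessel walls, and Esam is an adhesion protein of endothelium and stem cells.

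Some genes lay outside the range of both wild-type groups, called in the same direction against each and by at least 4-fold. Only protein-coding genes with a mean of at least 20 CPM in MLL-ENL preGM, WT preGM or WT HSC were considered, so genes at lower levels are not listed. Above both were Fbp1, Hspa2, Ces2g and Bcat1. Stem cells of the fusion strain (MLL-ENL HSC) also averaged more than both for Fbp1 (85.3 CPM), Hspa2 (34.3 CPM) and Ces2g (11.9 CPM). Bcat1 averaged 1.59 CPM there. Fbp1 is the gluconeogenic fructose bisphosphatase. It had 33.5, 63.3 and 55.3 CPM in MLL-ENL preGM, 5.49, 1.54 and 5.01 CPM in WT preGM and 5.53, 3.49 and 5.97 CPM in WT HSC. The 2 wild-type groups overlapped and every MLL-ENL preGM library was higher (log2 fold change 3.35 ± 0.40 SE, adjusted p = 1.7e-05 against WT HSC). Bcat1, which transfers the amino group of branched-chain amino acids, had 193, 68.7 and 92.6 CPM in MLL-ENL preGM, 22.6, 19.9 and 38.4 CPM in WT preGM and 0.615, 1.59 and 1.42 CPM in WT HSC, and the 3 groups did not overlap (6.60 ± 0.52, adjusted p = 3.6e-07 against WT HSC; 2.13 ± 0.41, adjusted p = 0.0044 against WT preGM). Hspa2, a heat shock protein, and Ces2g, a carboxylesterase, were 2.71 and 2.53 above WT HSC.

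Below both, by the same rule, were Tgfbi, Ctse, Slfn2, S100a4 (with Gm42674, which holds the same reads), Hbb-bt and Ltf. Ctse and Hbb-bt also averaged less than both in MLL-ENL HSC, at 7.24 and 19.8 CPM. Tgfbi, Slfn2, S100a4 and Ltf did not, at 31.0, 76.0, 76.1 and 2.27 CPM there. Tgfbi is a secreted matrix protein induced by TGF-beta. This gene had 2.31, 1.01 and 1.10 CPM in MLL-ENL preGM, 19.1, 23.9 and 30.3 CPM in WT preGM and 16.6, 16.3 and 17.8 CPM in WT HSC, without overlap (log2 fold change -3.49 ± 0.32 SE, adjusted p = 1.4e-06 against WT HSC). Slfn2 is a Schlafen protein of quiescent T cells and monocytes in mice. The transcript had 11.6, 12.1 and 17.9 CPM in MLL-ENL preGM, 103, 62.9 and 115 CPM in WT preGM and 72.8, 76.9 and 57 CPM in WT HSC. Ctse (cathepsin E) and S100a4 had log2 fold changes of -3.62 and -2.70 against WT HSC. Hbb-bt, an adult beta globin, was at 2.31, 8.19 and 6.49 CPM in MLL-ENL preGM, 16.3, 42.2 and 16.2 CPM in WT preGM and 104, 79.6 and 98.4 CPM in WT HSC. Klf6, a zinc finger factor from the list of immediate early genes, also lay below both, at 7.13, 8.22 and 8.20 CPM in MLL-ENL preGM, 32.9, 15.8 and 33.9 CPM in WT preGM and 30.0, 31.5 and 19.5 CPM in WT HSC (-1.78 ± 0.30, adjusted p = 0.00034 against WT HSC). Its distance was under 4-fold.

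Genes of growth and ribosome production were above stem cells. Of 20 MYC and ribosome biogenesis genes, 14 were higher and 1 lower in MLL-ENL preGM than in WT HSC, with a median of 1.14, against 8 higher and 1 lower in WT preGM (13 higher where the fit left out MLL-ENL preGM replicate 1). The 14 became 7 with library size alone, and 8 to 9 without any 1 of the WT HSC libraries. Myc had 428, 149 and 165 CPM in MLL-ENL preGM, 92.3, 68.3 and 152 CPM in WT preGM and 112, 135 and 94.1 CPM in WT HSC. Replicate 1 of MLL-ENL preGM was far above the others, and the call against WT HSC did not hold without MLL-ENL preGM replicate 1 or WT HSC replicate 1 or 3 (adjusted p from 0.083 to 0.2); without replicate 1 the difference was 0.47. Npm1 (nucleophosmin), which carries ribosomal particles, was at 6108, 10330.0 and 9815 CPM in MLL-ENL preGM, against 3167, 3261 and 3444 CPM in WT HSC (log2 fold change 1.41 ± 0.32 SE, adjusted p = 0.0039). WT preGM was called higher than WT HSC for Npm1 too (1.27), though not with library size alone or limma on RPKM. The precursor groups were not called apart (0.14). Nop2 is an rRNA methyltransferase. Its level was 344, 90.6 and 137 CPM in MLL-ENL preGM, 57.5, 56.1 and 108 CPM in WT preGM and 45.7, 46.9 and 33.5 CPM in WT HSC (2.18 ± 0.41, adjusted p = 0.001 against WT HSC), again highest in replicate 1 and 1.44 above WT HSC without it. Mycn was the member that fell.

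**Figure D5:**
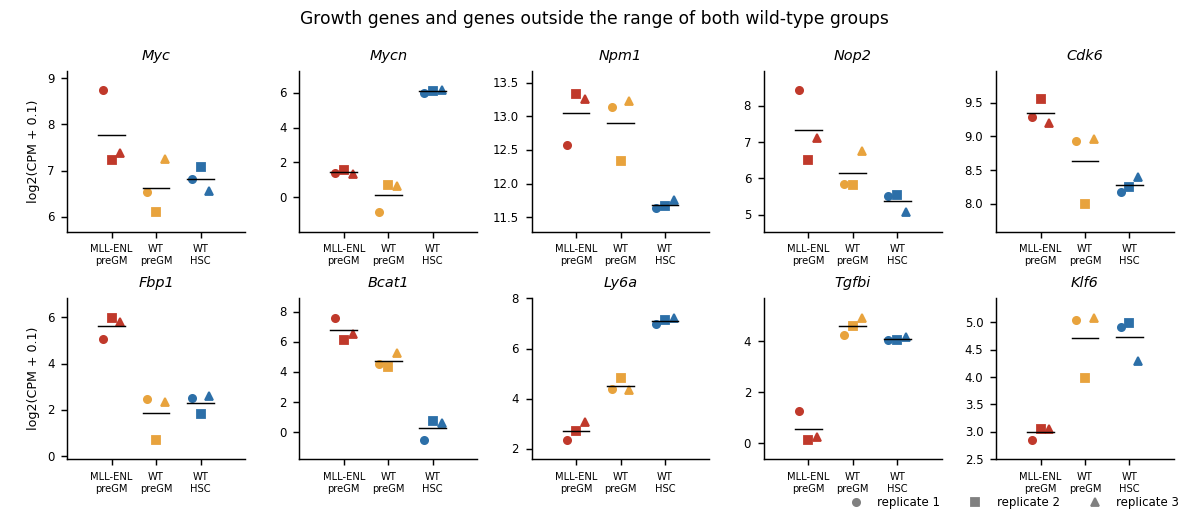
Levels of 5 growth genes (top row) and 5 genes outside the range of both wild-type groups (bottom row), as log2(CPM + 0.1) on the y axis, in MLL-ENL preGM, WT preGM and WT HSC (x axis); each symbol is 1 library, lines are group means, and the genes were picked with their values known. Among the groups shown, Fbp1 and Bcat1 are highest and Ly6a, Tgfbi and Klf6 lowest in MLL-ENL preGM, Mycn is highest in WT HSC, and Myc and Nop2 are highest in MLL-ENL preGM replicate 1.

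Of 28 proliferation genes, 8 were higher (over all genes 17.4%) and 2 lower (over all genes 16.0%) in MLL-ENL preGM than in WT HSC. In WT preGM, 7 were higher (over all genes 18.4%). Without WT HSC replicate 2 none was called lower, and for Mki67 the call against WT HSC did not hold without MLL-ENL preGM replicate 2 or WT HSC replicate 2 or 3 (adjusted p from 0.055 to 0.057). The cultured stem cells already held these transcripts: Mki67, the marker of cycling cells, was at 148, 134 and 147 CPM in MLL-ENL preGM, against 238, 265 and 261 CPM in WT HSC (log2 fold change -0.83 ± 0.25 SE, adjusted p = 0.017), and Top2a, a topoisomerase, at 736, 335 and 398 CPM in MLL-ENL preGM, against 471, 452 and 455 CPM in WT HSC. The 8 called higher included the mitotic kinases Aurka (2.17) and Plk1 (1.80), and the nucleotide synthesis gene Rrm2 (2.24). With library size alone, 4 were higher and 3 lower. Aurka, Plk1 and Rrm2 were called higher than in WT HSC in WT preGM too (1.96, 1.29 and 2.025). Aurka and Plk1 were not called between the precursor groups. Of 8 cell cycle inhibitors and retinoblastoma genes, Cdkn1c was lower and Cdkn2c, which encodes the inhibitor p18, was higher, at 12.8, 30.7 and 26.7 CPM in MLL-ENL preGM, 4.96, 7.17 and 4.75 CPM in WT preGM and 10.3, 6.11 and 11.1 CPM in WT HSC (1.35 ± 0.33, adjusted p = 0.0061 against WT HSC). With library size alone, 1 was higher and 6 were lower, and without MLL-ENL preGM replicate 1 the number lower was 3.

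Of 13 BCL2 family genes, which set the threshold for apoptosis, 5 were higher and 2 lower in MLL-ENL preGM than in WT HSC (over all genes 17.4% and 16.0%). That balance turned to 3 higher and 4 lower with library size alone. Bcl2l1 is the survival factor BCL-XL. It was at 59, 12.7 and 16.7 CPM in MLL-ENL preGM, 7.05, 7.31 and 11.2 CPM in WT preGM and 11.2, 15.3 and 9.35 CPM in WT HSC. Replicate 1 was far above the others, and the remaining 2 overlapped WT HSC (adjusted p = 0.033). Here the call against WT HSC did not hold without MLL-ENL preGM replicate 1 or WT HSC replicate 1 or 3 (adjusted p from 0.091 to 0.4); without MLL-ENL preGM replicate 1 the difference was 0.30. Pmaip1 (NOXA) and Bid, which promote cell death, were called higher in MLL-ENL preGM than in WT HSC by 4.57 and 2.09, Pmaip1 by 3.88 without MLL-ENL preGM replicate 1 and 5.22 without WT HSC replicate 2. Both were called higher in WT preGM too (3.66 and 1.63), and neither was called between the precursor groups. Of 19 cholesterol and fatty acid synthesis genes, 8 were higher and 1 lower in MLL-ENL preGM than in WT HSC (over all genes 17.4% and 16.0%). With library size alone, 4 were higher and 1 lower. In WT preGM, 9 were higher (over all genes 18.4%), or 14 where the fit left out MLL-ENL preGM replicate 1. Fdps, which makes farnesyl diphosphate, was at 226, 385 and 380.4 CPM in MLL-ENL preGM, 1096, 381 and 1021 CPM in WT preGM and 56.7, 53.3 and 55.4 CPM in WT HSC, and Scd1, a fatty acid desaturase, was 3.60 above WT HSC.

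Megakaryocyte and erythroid genes were mostly lower than in stem cells. Of 27, 5 were higher and 16 lower in MLL-ENL preGM than in WT HSC (over all genes 17.4% and 16.0%), and 4 were higher and 16 lower in WT preGM (over all genes 18.4% and 20.1%). The numbers higher were thus under or near those of all genes. Pf4 (platelet factor 4) was at 4.85, 19.2 and 11.9 CPM in MLL-ENL preGM, 15.3, 81.5 and 46 CPM in WT preGM and 454, 422 and 565 CPM in WT HSC (log2 fold change -5.33 ± 0.61 SE, adjusted p = 1.2e-05 against WT HSC). Vwf, the clotting factor that binds platelets, had a log2 fold change of -3.81 against WT HSC. Gata1, the master factor of erythroid, megakaryocyte and mast cells, was higher, at 50.6, 48.7 and 48.3 CPM in MLL-ENL preGM, 21.5, 7.96 and 30.2 CPM in WT preGM and 10.9, 20.7 and 8.86 CPM in WT HSC (log2 fold change 1.86 ± 0.39 SE, adjusted p = 0.0021 against WT HSC). Klf1, Car1 and Tfrc (the transferrin receptor) were among the others higher, while Hbb-bt and Hbb-bs were lower. Car1 was called higher than in WT HSC in WT preGM too (6.69), and was not called between the precursor groups (0.28, adjusted p = 0.77). Car2 is a carbonic anhydrase. This gene was at 666, 1074 and 907 CPM in MLL-ENL preGM, 262, 72.3 and 285 CPM in WT preGM and 1465, 1617 and 1347 CPM in WT HSC, without a call against WT HSC (-0.74 ± 0.39, adjusted p = 0.16) unless the fit left out WT preGM replicate 2 (-0.74, adjusted p = 0.014), and above WT preGM (2.10 ± 0.41, adjusted p = 0.0046).

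Receptors for the culture cytokines were uneven. Of 16 cytokine receptor genes, 6 were higher and 4 lower in MLL-ENL preGM than in WT HSC (over all genes 17.4% and 16.0%). The 6 and 4 became 3 and 4 with library size alone and 4 and 5 without MLL-ENL preGM replicate 1. Csf3r is the G-CSF receptor. The transcript was at 67.2, 20.2 and 21.3 CPM in MLL-ENL preGM, 20.6, 22.2 and 19.7 CPM in WT preGM and 14.4, 15.1 and 12.6 CPM in WT HSC (log2 fold change 1.37 ± 0.36 SE, adjusted p = 0.0091 against WT HSC, and 0.57 without MLL-ENL preGM replicate 1). Csf2rb, the signalling chain shared by the receptors for IL3 and GM-CSF, was 1.63 above WT HSC in MLL-ENL preGM and 2.28 above it in WT preGM. It was not called between the precursor groups (adjusted p = 0.15), but was called lower in MLL-ENL preGM without its replicate 1. Tek, the receptor for angiopoietin, had a log2 fold change of -2.87 in MLL-ENL preGM against WT HSC, or -3.56 without MLL-ENL preGM replicate 1.

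Imprinted, interferon response and immediate early genes were called lower than in stem cells more often than higher. Over all genes, 17.4% were called higher and 16.0% lower in MLL-ENL preGM than in WT HSC, and 18.4% and 20.1% in WT preGM. Of 11 imprinted genes, all 11 were lower in MLL-ENL preGM than in WT HSC, with a median of -3.02, and all 11 were lower in WT preGM, with a median of -4.48 (-4.27 with bounds), or 7 without WT preGM replicate 3. Grb10 is an adaptor that restrains growth signals. Its level was 16.5, 13.1 and 11.5 CPM in MLL-ENL preGM, 5.13, 5.54 and 5.75 CPM in WT preGM and 36.2, 43.2 and 42.8 CPM in WT HSC. Dlk1, Meg3 and Grb10 were higher in MLL-ENL preGM than in WT preGM, by 3.01 (3.80 without WT preGM replicate 2), 2.80 and 1.32. Of 16 interferon response genes, none was higher and 9 were lower than in WT HSC, among them Rtp4 (-4.02) and Oasl2 (-3.08). Bst2 and Ifitm3, antiviral membrane proteins, were not called, but were called higher without both libraries that stood apart (0.51, adjusted p = 0.0057 for Bst2; 0.35, adjusted p = 0.016 for Ifitm3). Of 12 immediate early genes, 1 was higher (Atf3, with no counts in WT HSC and at least 1.74-fold higher) and 5 were lower, among them Egr1, a factor that holds stem cells quiescent in mice, at 3.74, 2.18 and 2.84 CPM in MLL-ENL preGM, 0.925, 1.63 and 1.17 CPM in WT preGM and 12.7, 12.7 and 11 CPM in WT HSC. For Atf3 the call against WT HSC did not hold without MLL-ENL preGM replicate 3 or any WT HSC library (adjusted p from 0.056 to 0.065). Of 5 stromal and endothelial genes tested, Pecam1 and Pdgfrb were higher and Kdr was lower, and Cxcl12 had no counts. For Pdgfrb the call against WT HSC did not hold without MLL-ENL preGM replicate 1 or WT HSC replicate 1 or 2 (adjusted p from 0.054 to 0.082). Of 11 genes that follow RNA quality, 5 were lower in MLL-ENL preGM than in WT HSC (mt-Nd2, mt-Nd4, mt-Nd5, Malat1 and Neat1). The mt genes are themselves part of the lower mitochondrial share of MLL-ENL preGM given above, and Malat1 and Neat1 are not mitochondrial genes. The part of RNA quality in the other lists was not tested.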

How the data were processed

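RNA sequencing libraries of 12 samples (4 groups of 3) were prepared with the SMARTer chemistry for small inputs, as the labels' protocols say, and deposited as 1 file each. Per the file headers, a file gives a read count and an RPKM value, made by the authors, for every exon, intron and spliced transcript. The deposited counts are whole reads that the authors did not normalize, and the RPKM are those counts divided by feature length and library size. The submitters' processing notes name TopHat2 2.0.8, Bowtie2 2.1.0, HTSeq and edgeR, and their genome build was not given in the sources used here. Whether counting used strand is not stated, so reads of overlapping and antisense genes cannot be told apart.

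Transcript IDs were matched to GENCODE M21 on GRCm38 (95.8% of 93615), and coordinates are those of that annotation. Gene counts were summed over the set of non-overlapping exons that covers most bases of the gene (99.4% of exon bases), so that no base counted more than once. The sum over every distinct exon interval was an alternative. Counts of exons assigned to no gene were 1.23% to 3.20% of a library and were left out.

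Of 37614 genes, 15711 passed edgeR's filterByExpr (minimum count 10, minimum total 15). They were fitted with edgeR 4.0.16 (R 4.3.3), TMM scaling and the robust quasi-likelihood test over all 12 libraries, with Benjamini-Hochberg adjustment and a threshold of 0.05. Distances used a prior count of 2, and single values an exact permutation test. Depth was 14.5 to 50.3 megacounts per library. The floor of 3 counts per library was used for lower bounds and covers counting error only.

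The members and gene lists were chosen with earlier results of these data known. Genes named in the text were those of 3 rules (the 12 largest changes each way against WT HSC with at least 20 CPM and separate libraries, those near WT HSC, those outside both wild-type groups) and members of 25 lists. Some of them are not reported here. Alternatives were library size alone, DESeq2 1.42.0, no filter on low counts, limma 3.58.1 on log2(RPKM + 0.1), the 2 groups alone, a replicate block, thinned counts, and each library left out.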

Additional observations from a re-analysis of the deposited data

Results flagged for a closer look

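Against WT HSC, 12 genes were called in opposite directions in MLL-ENL preGM and in WT preGM, and were also called between the precursor groups in the edgeR fit. Both comparisons share the WT HSC libraries, so the difference between the precursor groups, MLL-ENL preGM minus WT preGM on the log2 scale, equals the difference of the 2 fold changes. The choice of these genes fixes its sign, and its value is given for each gene as a description. No explanation was tested for any of them.

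Of these genes, 5 were lower in MLL-ENL preGM than in WT HSC and higher in WT preGM. Ltf, the granule protein lactoferrin, differed by -7.83. Shtn1, which encodes shootin 1, differed by -4.89, at 0.320, 0.195 and 0.331 CPM in MLL-ENL preGM, 5.85, 14.3 and 5.75 CPM in WT preGM and 3.58, 3.58 and 1.29 CPM in WT HSC, and its WT preGM call against WT HSC did not hold without both libraries that stood apart (1.04, adjusted p = 0.087). B4galt6, a galactosyltransferase that makes lactosylceramide, differed by -3.71, at 6.96, 6.73 and 8.20 CPM in MLL-ENL preGM, 82.3, 116 and 87.7 CPM in WT preGM and 19.9, 16.6 and 18.6 CPM in WT HSC, without overlap between the groups. Slc40a1, the iron exporter ferroportin, differed by -3.22, and for it the call against WT HSC did not hold without MLL-ENL preGM replicate 2 or 3, WT preGM replicate 1 or WT HSC replicate 2 or 3 (adjusted p from 0.052 to 0.13). Cxcr4, the receptor that keeps stem cells and neutrophils in the marrow, differed by -1.96, at 9.43, 6.69 and 7.01 CPM in MLL-ENL preGM, 30.6, 31 and 28.5 CPM in WT preGM and 18, 16.1 and 21 CPM in WT HSC. Its WT preGM libraries lay above the WT HSC range with adjusted p = 0.042 for that comparison. That call did not hold in 9 of 21 alternatives. Among these were the fits without any 1 WT preGM library or without WT HSC replicate 1 or 2 (adjusted p up to 0.13).

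The other 7 were higher in MLL-ENL preGM than in WT HSC and lower in WT preGM. Gdf3, a growth factor of the TGF-beta family, differed by 3.41, at 14.5, 26.4 and 24.7 CPM in MLL-ENL preGM, 2.45, 1.12 and 2.50 CPM in WT preGM and 12.2, 12.8 and 10.5 CPM in WT HSC. Psma8, a proteasome subunit known from the testis, differed by 2.77, at 31.7, 34.8 and 35.8 CPM in MLL-ENL preGM, 5.58, 4.56 and 4.78 CPM in WT preGM and 9.0, 8.11 and 9.29 CPM in WT HSC, without overlap. Hoxa7 differed by 2.68 and Ssbp2, a cofactor of LIM domain factors, by 1.98, and 20.4% and 22.2% of their exon bases are shared with another gene. Serpina3f, a serine protease inhibitor, differed by 2.51, and Pdgfrb, a receptor for platelet-derived growth factor, by 2.36. Impact, a regulator of translation, differed by 1.93. It was at 66.1, 21.9 and 19.7 CPM in MLL-ENL preGM, 9.94, 8.94 and 9.33 CPM in WT preGM and 17.5, 18 and 19 CPM in WT HSC, so only replicate 1 of MLL-ENL preGM lay far above the stem cells, and without it the difference from WT HSC was 0.20 (adjusted p = 0.4). For Gdf3 the call against WT HSC did not hold without MLL-ENL preGM replicate 2 or 3 or any WT HSC library (adjusted p from 0.062 to 0.11), for Serpina3f the call against WT HSC did not hold without MLL-ENL preGM replicate 1 or 3, WT preGM replicate 1, MLL-ENL HSC library 2 or 3 or any WT HSC library (adjusted p from 0.054 to 0.12), and for Ssbp2 the call against WT HSC did not hold without MLL-ENL preGM replicate 2 or 3 or any WT HSC library (adjusted p from 0.063 to 0.081). For Pdgfrb the call against WT HSC did not hold without MLL-ENL preGM replicate 1 or WT HSC replicate 1 or 2 (adjusted p from 0.054 to 0.082). The calls of WT preGM against WT HSC were fragile too for Pdgfrb and Impact. For Pdgfrb that call (adjusted p = 0.027) did not hold without replicate 1 or 3 of either group (adjusted p up to 0.14). For Impact it (adjusted p = 0.047) did not hold in 11 of 21 alternatives, among them those without any 1 WT preGM or WT HSC library (adjusted p up to 0.11).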

How the results depend on the processing

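The number of genes called in MLL-ENL preGM against WT HSC (5245) and in WT preGM against WT HSC (6044) stayed within 1.5-fold under every alternative run, from 4072 to 5994 and from 4572 to 7111 without any 1 library. Without both libraries that stood apart these counts were 7085 and 8051. The number called in MLL-ENL preGM against WT preGM (1064) was 1742 with DESeq2, and 566 to 1344 without any 1 library, the lowest without WT preGM replicate 1. Same-numbered libraries did not deviate together (correlations of their deviations -0.104 to 0.10), so the numbers were not taken as pairs. With the replicate block, 4616, 5533 and 864 genes were called in the 3 comparisons. limma on RPKM without TMM moved the share of higher genes among those called to 22.9%, 17.4% and 64.5%, as library size alone did, and the cause was not tested. The difference in distance from WT HSC (-0.251) was -0.31 with library size alone, -1.01 over the most variable genes, and -0.280 to -0.232 without any 1 library, each with an exact permutation p of 0.1. Of 158 named genes, 126 were called against WT HSC in MLL-ENL preGM, and 109 of these kept their call under every alternative. Top2a, not called, had a log2 fold change of -0.32 (adjusted p = 0.024) without both libraries that stood apart, against 0.09 with all libraries. The WT HSC libraries were the shallowest, and thinning every library to the shallowest gave 4938, 5666 and 925 calls.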
